A study of Homo sapiens with 16 samples.

Results

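Ribosome biogenesis was described in HCC4006 cells through 49 genes of RNA polymerase I, of the small nucleolar ribonucleoproteins (snoRNPs) and of the pathways that assemble the 40S and 60S subunits. The genes were those of a list of 50 symbols whose name equalled the symbol of a locus in the expression table, with a mean of at least 1 FPKM over the 16 libraries. All 49 that matched by name passed that level, so none fell outside it; the lowest mean was that of UTP20 and the highest that of NPM1. The remaining symbol, NOP56, stood only in a locus joined with a microRNA name, and its values are given separately. The table held 24293 loci, of which 11647 reached a mean of 1 FPKM and were tested.

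HCC4006 is a cell line from a non-small cell lung cancer that carries an activating EGFR mutation. The groups were gefitinib (an inhibitor of the EGFR kinase, 100 nM) with AZ1366 (a tankyrase inhibitor, 100 nM), gefitinib alone (100 nM), AZ1366 alone (100 nM) and DMSO as vehicle, with 4 libraries each. All cells had grown for 24 hours before treatment and were then treated for 24 hours, and polyadenylated RNA was sequenced. The study was set up to compare each compound and their combination. A single line at a single dose and time was profiled, and nothing in the labels states that a group's 4 libraries were separate cultures. The p-values therefore rest on the spread among these particular libraries, which may be technical.

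Ribosomes are built in the nucleolus. RNA polymerase I transcribes the precursor of the large ribosomal RNAs, box C/D and box H/ACA snoRNPs methylate and pseudouridylate it, and a large set of helicases, GTPases and scaffold proteins folds, cuts and exports the 2 subunits. Growth factor signalling through ERK and MYC is known to raise transcription of many of these genes in growing cells.

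Most of the 49 genes fell with each treatment, and the combination gave the largest falls. With both compounds 45 of 49 fell and 0 rose, where 49.4% of all tested loci were called lower and 29.9% higher, 79.3% in either direction (limma, adjusted p under 0.05, over all tested loci). With gefitinib alone 46 fell and 0 rose, against a background of 36.9% lower and 27.7% higher, 64.6% in either direction. With AZ1366 alone 41 fell and 1 (NOP10) rose, against 39.8% lower and 18.6% higher, 58.4% in either direction. By unadjusted p under 0.05 the counts of genes higher were again 0 with both compounds and 0 with gefitinib.

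The sizes of the falls separated the genes from the background more than their number. A log2 change of -1 or less was reached by 28 of 49 genes with both compounds, where 7.39% of all tested loci reached it. It was reached by 9 genes with gefitinib (1.06% of loci) and by TCOF1 alone with AZ1366 (0.266% of loci). The median log2 change of the 49 genes was -1.17 with both compounds, -0.76 with gefitinib and -0.52 with AZ1366, while the medians of all tested loci were -0.15 with both compounds, -0.056 with gefitinib and -0.10 with AZ1366. Group values did not overlap with those of vehicle, and were lower, for 45 genes with both compounds (48.1% of all loci), for 45 with gefitinib (35.7%) and for 39 with AZ1366 (26% of loci).

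**Figure D1:**
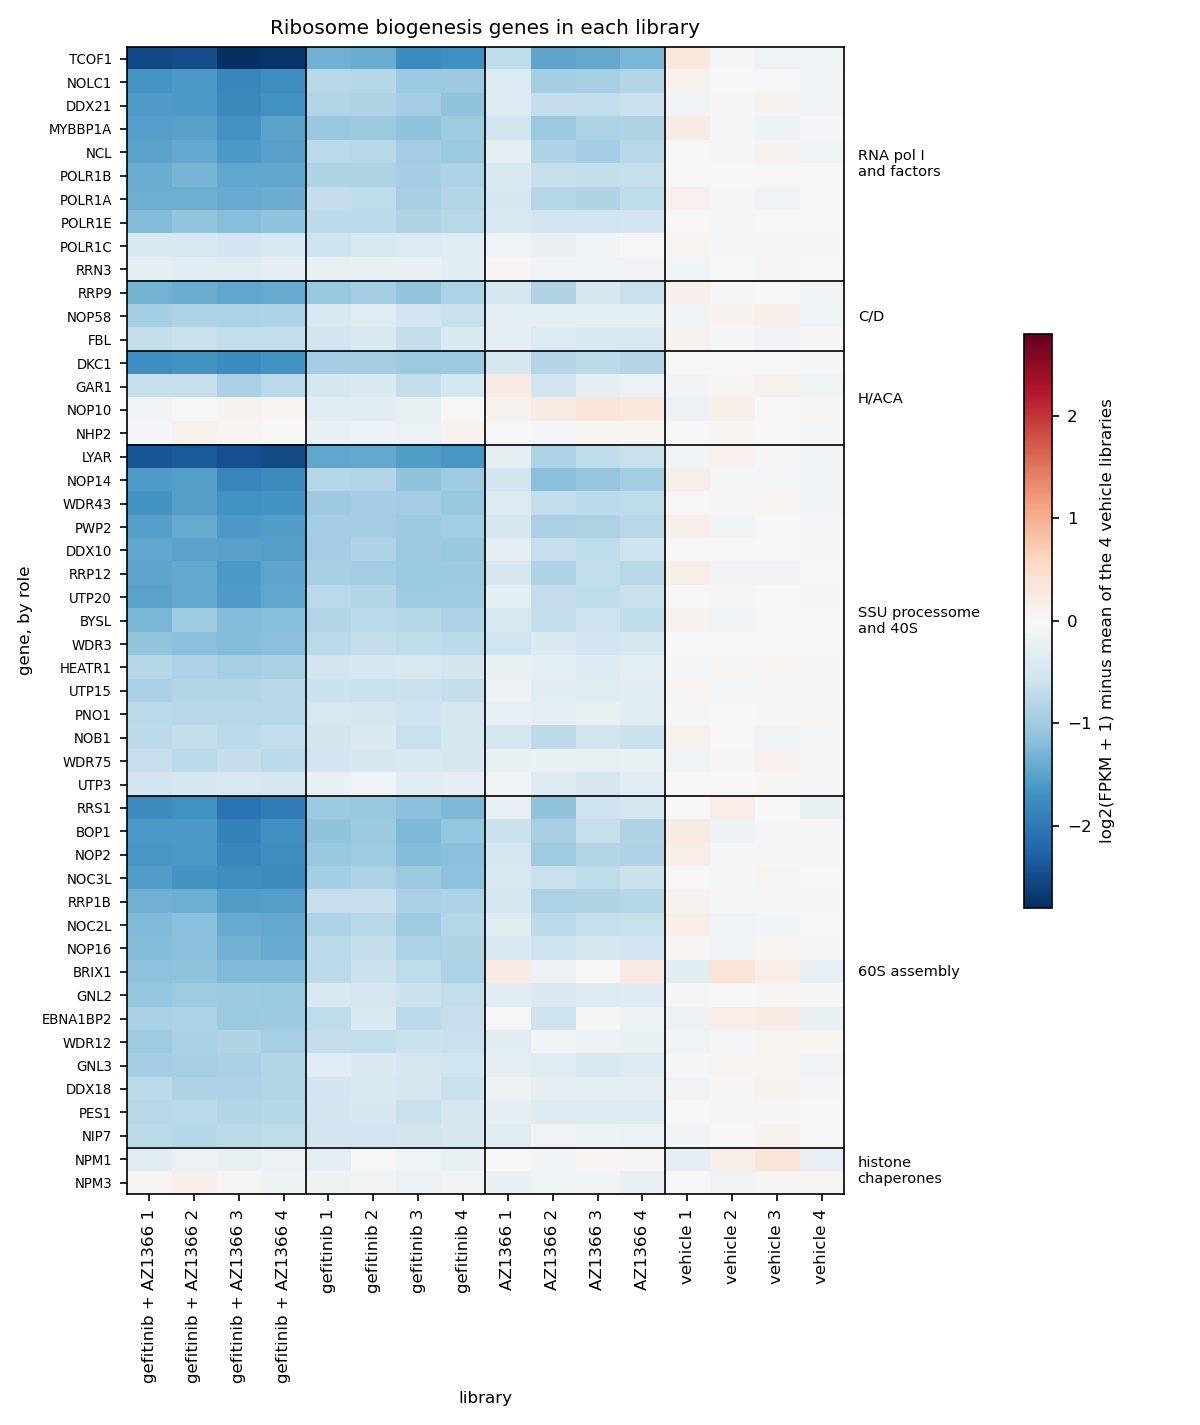
Each row is a gene, grouped by role and ordered within a role by its change with both compounds, and each column a library, with treated libraries left of vehicle. Colour is log2(FPKM + 1) minus the mean of the 4 vehicle libraries. Blue deepens from AZ1366 through gefitinib to both compounds in most rows, and NOP10, NHP2, NPM1 and NPM3 stay pale.

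FPKM are shares of a library, and in bulk samples fewer cells of a type and less RNA per cell cannot be told apart. The 49 genes together took 0.488% to 0.515% of the summed FPKM with both compounds, 0.571% to 0.649% with gefitinib, 0.677% to 0.747% with AZ1366 and 0.792% to 0.951% with vehicle. NPM1 held a large part of these sums. Without it the shares were 0.227% to 0.240% with both compounds, 0.299% to 0.331% with gefitinib, 0.367% to 0.426% with AZ1366 and 0.507% to 0.537% with vehicle, and the 4 groups did not overlap.

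The depth of the libraries is unknown, since only FPKM were used. Summed FPKM ran between 433357 and 478179 per library, and correlations of log2 values across loci between 0.991 and 0.998 within groups and between 0.923 and 0.992 between groups. The epithelial markers EPCAM, KRT8, KRT18, KRT19 and CDH1 had at least 128 FPKM in every library. NKX2-1, of the lung lineage, had 5.45 to 9.93 FPKM, and the surfactant genes SFTPA1, SFTPB and SFTPC were under 0.2 FPKM and NAPSA under 0.5 FPKM throughout. Among markers of blood, endothelial and stromal cells, PTPRC, CD3E, PECAM1, VWF and DCN were at most 0.179 FPKM, COL1A2 and CD14 stayed under 1 FPKM, and COL1A1 had 1.396 to 2.11 FPKM. The mesenchymal markers VIM, with 250.4 to 434 FPKM, and CDH2, with 10.5 to 20.7 FPKM, were present in every library, and whether they came from the HCC4006 cells was not tested.

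For the 49 genes AZ1366 replicate 1 stood apart from the other 3 AZ1366 libraries, towards vehicle. It held the highest value of its group for 36 of the 49 genes, and its mean log2(FPKM + 1) over them was 4.90, against 4.64 to 4.72 in the other 3 and 5.15 to 5.22 with vehicle. Over all tested loci its mean was also the highest of its group, at 3.77 against 3.56 to 3.64. There it lay above the vehicle libraries too, which had 3.72 to 3.76. Without this library 41 of the 49 genes fell and 1 rose with AZ1366, with a median of -0.54, while 49.1% of all tested loci were then lower, against 39.8% with it, and the median of all loci was -0.15, against -0.10. Without vehicle replicate 1 as well, 43 fell and 1 rose, where 47.1% of all tested loci were lower and 17.2% higher.

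Promoters are shown for LYAR, NOP2 and MYBBP1A, which fell, and for NOP10, which did not fall with both compounds, because all 4 hold the E-box CACGTG that MYC and related factors bind. The windows are 300 bases, 250 before and 50 after a RefSeq start on GRCh38.p14, in the direction of the gene, and capitals mark the E-box. RefSeq windows were matched by symbol for 40 of the 49 genes, and BOP1, DDX18, NOLC1, NOP58, POLR1E, RRP12, RRP1B, RRS1 and TCOF1 had none. The LYAR window shown (chr4:4289972-4290271, minus strand) holds the E-box 64 bases before its start. Another LYAR window, of a different start (chr4:4290105-4290404, minus strand), holds 0 E-boxes and is not shown. The NOP2 window (chr12:6568242-6568541, minus strand) holds the E-box 36 bases after the start, and the MYBBP1A window (chr17:4555335-4555634, minus strand) 28 bases after it. The NOP10 window (chr15:34343087-34343386, minus strand) holds 2, at 170 and 11 bases before the start.
LYAR: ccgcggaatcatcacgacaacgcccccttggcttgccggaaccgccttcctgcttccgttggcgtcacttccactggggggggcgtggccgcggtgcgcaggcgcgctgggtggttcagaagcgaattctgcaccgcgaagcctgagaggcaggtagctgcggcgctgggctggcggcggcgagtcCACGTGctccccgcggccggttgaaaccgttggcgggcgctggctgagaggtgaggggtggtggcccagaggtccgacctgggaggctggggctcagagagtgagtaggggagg
NOP2: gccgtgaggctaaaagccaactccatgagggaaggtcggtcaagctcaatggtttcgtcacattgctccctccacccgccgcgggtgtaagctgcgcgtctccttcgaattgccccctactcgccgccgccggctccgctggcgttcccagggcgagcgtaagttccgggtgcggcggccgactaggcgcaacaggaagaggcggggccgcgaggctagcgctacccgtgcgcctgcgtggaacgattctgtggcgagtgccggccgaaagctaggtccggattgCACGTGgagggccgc
MYBBP1A: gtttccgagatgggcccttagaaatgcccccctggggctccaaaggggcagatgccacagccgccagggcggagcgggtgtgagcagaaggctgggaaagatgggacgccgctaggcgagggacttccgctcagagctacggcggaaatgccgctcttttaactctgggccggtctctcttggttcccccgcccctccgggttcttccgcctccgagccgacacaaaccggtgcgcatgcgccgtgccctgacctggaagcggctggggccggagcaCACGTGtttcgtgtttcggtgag
NOP10: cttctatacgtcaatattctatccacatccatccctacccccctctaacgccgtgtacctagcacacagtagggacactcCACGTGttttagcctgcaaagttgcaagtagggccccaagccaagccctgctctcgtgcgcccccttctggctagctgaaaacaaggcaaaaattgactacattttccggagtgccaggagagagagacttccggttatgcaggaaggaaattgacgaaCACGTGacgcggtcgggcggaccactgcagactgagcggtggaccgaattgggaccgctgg

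An E-box was held by 19 of the 40 genes with a window, or 47.5%, against 8.77% of all 27305 genes with windows and 12.8% of the 8109 tested genes with windows. A gene was counted when any of its windows held the motif on either strand. The ETS core CCGGAA was held by 57.5% of the genes (20.1% of all genes and 35.9% of tested genes), the NRF1 motif by 27.5% (6.98% and 13.5%) and the GC box GGGCGG by 77.5% (48.3% and 78.4%). The median log2 change with both compounds was -1.39 for the 19 genes with an E-box and -0.88 for the other 21. With gefitinib these medians were -0.89 and -0.63, and with AZ1366 -0.58 and -0.28. Other motifs also split the genes. With both compounds the medians were -1.49 with and -0.92 without the NRF1 motif, -1.17 and -0.79 for the GC box, and -1.17 and -1.03 for the ETS core. With gefitinib they were -0.89 and -0.63 for the NRF1 motif, -0.74 and -0.52 for the GC box, and -0.71 and -0.64 for the ETS core. With AZ1366 they were -0.605 and -0.31 for the NRF1 motif and -0.52 and -0.31 for the GC box. The ETS core went the other way with AZ1366, at -0.37 with and -0.55 without it. NCL and DKC1, described below, fell and held no E-box in their windows, and sequence outside the windows was not searched. Whether any of these motifs bears on the falls was not tested.

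Among the 10 genes of RNA polymerase I and its factors, all 10 fell with both compounds and with gefitinib, and 8 fell with AZ1366. The treacle gene TCOF1 had the largest fall of the 49 genes in each of the 3 treatments. Treacle is a nucleolar phosphoprotein that promotes transcription of ribosomal DNA, and its loss causes Treacher Collins syndrome. TCOF1 measured 5.50, 5.72, 4.38 and 4.55 FPKM with both compounds, 13.7, 13.2, 10.1 and 10.3 FPKM with gefitinib, 21.8, 12.3, 12.8 and 14.4 FPKM with AZ1366 and 44.5, 35.2, 33.1 and 33.5 FPKM with vehicle. Every treated library was below every vehicle library, and every library with both compounds was below every library with 1 compound. The mean with both compounds was 13.8% of that with vehicle. The log2 change, given here and below with the standard error of the fit, was -2.63 ± 0.15 (adjusted p = 2.81e-11) with both compounds, -1.55 ± 0.15 with gefitinib and -1.23 ± 0.15 with AZ1366. The locus lies at chr5:149737202-149779871 (hg19).

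The catalytic core of the polymerase moved with it. POLR1A encodes the largest subunit, which with POLR1B forms the active site. POLR1A had 2.62, 2.60, 2.50 and 2.58 FPKM with both compounds, 4.84, 4.75, 3.93 and 4.31 FPKM with gefitinib, 5.67, 4.40, 4.24 and 4.70 FPKM with AZ1366 and 9.21, 8.07, 7.85 and 8.29 FPKM with vehicle. The treated groups lay below vehicle with no overlap, and the 2 single compounds overlapped each other. Its log2 change was -1.39 ± 0.075 (adjusted p = 1.76e-11) with both compounds, -0.78 ± 0.075 with gefitinib and -0.71 ± 0.075 with AZ1366. POLR1B gave 6.79, 7.28, 6.49 and 6.50 FPKM with both compounds, 10.3, 10.2, 9.67 and 10.1 FPKM with gefitinib, 14.3, 12.2, 11.9 and 12.0 FPKM with AZ1366 and 19.3, 19.3, 19.7 and 19.6 FPKM with vehicle. The 4 groups of POLR1B did not overlap, and AZ1366 replicate 1 stood above its group. The log2 change of POLR1B was -1.40 ± 0.057 (adjusted p = 4.77e-13) with both compounds, -0.89 ± 0.057 with gefitinib and -0.60 ± 0.057 with AZ1366.

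The other polymerase genes differed among themselves. POLR1E, a polymerase I-specific subunit, fell in all 3 treatments, with log2 changes of -1.16 ± 0.046 with both compounds, -0.77 ± 0.046 with gefitinib and -0.52 ± 0.046 with AZ1366. POLR1C, a subunit shared with RNA polymerase III, fell less, with log2 changes of -0.47 ± 0.061 with both compounds and -0.43 ± 0.061 with gefitinib. With AZ1366 it had a log2 change of -0.094 ± 0.061 (adjusted p = 0.194), which changed sign under quantile normalization (0.049) and median-ratio scaling (0.017) and passed as a fall after correction for transcript length and GC content (-0.22, adjusted p = 0.00174).

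RRN3 encodes the initiation factor (TIF-IA) that makes the polymerase competent to start and is a known target of growth factor signalling. RRN3 stood at 38.3, 37.8, 36.6 and 38.6 FPKM with both compounds, 39.9, 40.9, 40.5 and 37.9 FPKM with gefitinib, 47.5, 44.1, 42.4 and 43.5 FPKM with AZ1366 and 44.2, 46.4, 48.8 and 46.4 FPKM with vehicle. The libraries with both compounds and those with gefitinib lay below vehicle, while AZ1366 overlapped with vehicle. The log2 change was -0.29 ± 0.048 (adjusted p = 2.63e-05) with both compounds, the smallest fall of the 45, and -0.22 ± 0.048 (adjusted p = 0.00073) with gefitinib. After correction for transcript length and GC content the value with both compounds was -0.070 (adjusted p = 0.0876) and no longer passed. With AZ1366 it was -0.065 ± 0.048 (adjusted p = 0.248), and it was 0.057 under median-ratio scaling and 0.049 after the length and GC correction. Without vehicle replicate 1 and AZ1366 replicate 1 together it passed as a fall (-0.12, adjusted p = 0.0286). RRN3 has 3 pseudogene names in the GENCODE annotation, and reads shared with them could not be separated.

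Nucleolin and the factors around it fell together. NCL encodes nucleolin, an abundant RNA-binding protein of the nucleolus; its locus (chr2:232319459-232329205, hg19) also holds snoRNA genes. NCL measured 127, 133, 117 and 125 FPKM with both compounds, 213, 210.1, 182 and 174 FPKM with gefitinib, 296, 198, 184 and 209 FPKM with AZ1366 and 363, 366, 383 and 331 FPKM with vehicle. The lowest vehicle library was above all treated libraries, and AZ1366 replicate 1 was the highest of the treated ones. On the log2 scale its change was -1.52 ± 0.11 (adjusted p = 8.9e-10) with both compounds, -0.89 ± 0.11 with gefitinib and -0.72 ± 0.11 with AZ1366. NOLC1 encodes a chaperone of snoRNPs related to treacle. NOLC1 had 19.4, 20.1, 17.1 and 18.2 FPKM with both compounds, 36.9, 36.0, 30.6 and 30.9 FPKM with gefitinib, 48.2, 32.5, 33.1 and 35.5 FPKM with AZ1366 and 68.0, 62.9, 63.2 and 60.1 FPKM with vehicle. No treated library reached the vehicle values. The change of NOLC1 was -1.71 ± 0.10 (adjusted p = 4.6e-11) with both compounds, -0.90 ± 0.10 with gefitinib and -0.77 ± 0.10 with AZ1366.

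MYBBP1A, a nucleolar protein that binds the polymerase I machinery, had the third largest fall with AZ1366. MYBBP1A gave 5.05, 5.08, 4.41 and 5.24 FPKM with both compounds, 7.40, 7.50, 7.03 and 7.85 FPKM with gefitinib, 10.9, 7.48, 8.43 and 8.60 FPKM with AZ1366 and 19.6, 15.8, 14.99 and 16.1 FPKM with vehicle. Groups with both compounds and with vehicle were separated from all others, while AZ1366 replicate 2 lay among the gefitinib libraries. Against vehicle its log2 change was -1.56 ± 0.092 with both compounds, -1.05 ± 0.092 with gefitinib and -0.84 ± 0.092 (adjusted p = 2.58e-06) with AZ1366. Its locus overlaps that of SPNS2, so reads of the 2 genes may mix. The helicase gene DDX21 averaged 41.1 ± 2.98 FPKM with both compounds, 69.1 ± 6.52 FPKM with gefitinib, 88.4 ± 9.52 FPKM with AZ1366 and 133 ± 7.78 FPKM with vehicle (SD, n = 4 each). As log2, its change was -1.67 ± 0.079 with both compounds, -0.93 ± 0.079 with gefitinib and -0.58 ± 0.079 with AZ1366, each past the test.

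**Figure D2:**
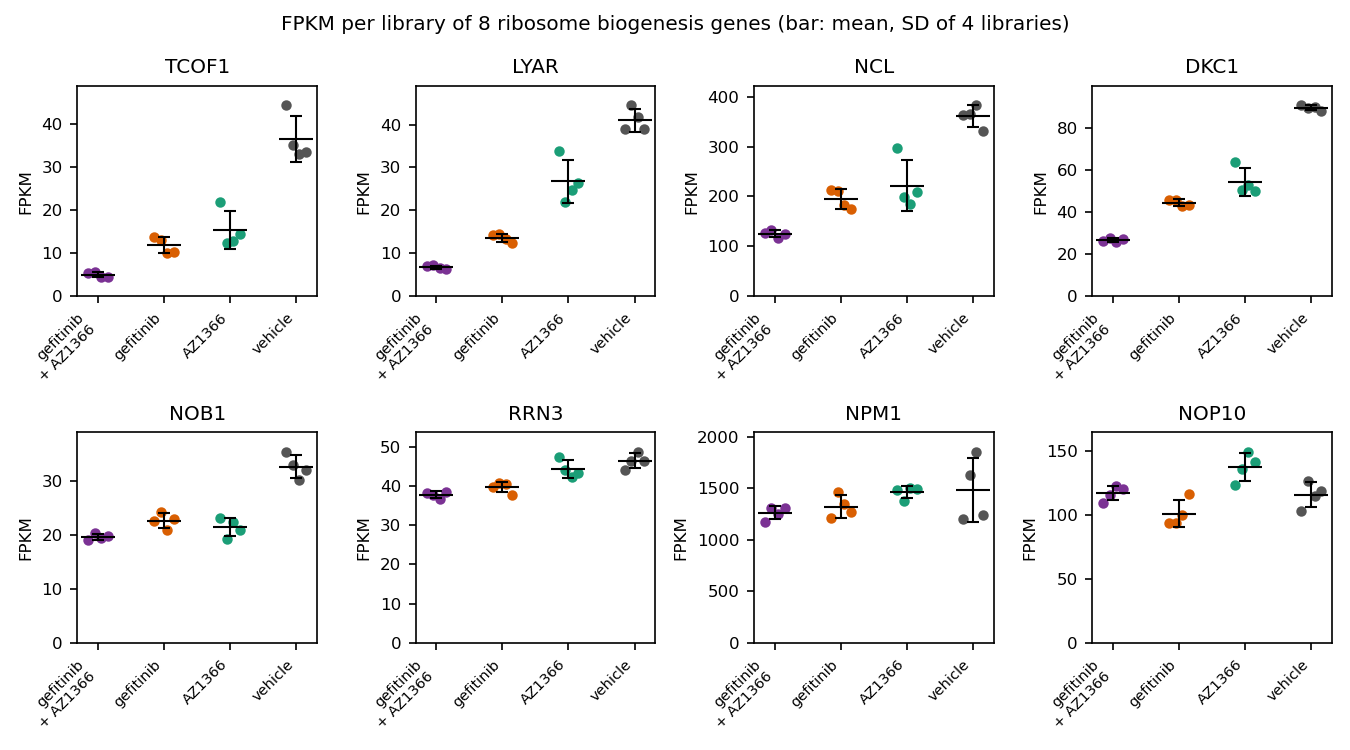
FPKM of each library (points) with the mean and SD of 4 libraries (bars) for 8 genes, with the treated groups left of vehicle. TCOF1, LYAR, NCL and DKC1 step down towards both compounds, NOB1 stands at about the same level in all 3 treatments, and NPM1 and NOP10 overlap with vehicle when both compounds were given.

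Box C/D snoRNPs guide methylation of ribosomal RNA, and all 3 of their genes fell in each treatment. FBL encodes fibrillarin, the methyltransferase. FBL stood at 32.4, 33.4, 32.4 and 32.2 FPKM with both compounds, 36.1, 38.6, 32.4 and 38.8 FPKM with gefitinib, 43.8, 39.9, 38.6 and 38.7 FPKM with AZ1366 and 55.8, 50.9, 49.5 and 53.5 FPKM with vehicle. The treated libraries lay below the vehicle libraries, and 1 gefitinib library reached the level of the combination. Its log2 change was -0.67 ± 0.060 (adjusted p = 1.51e-08) with both compounds, -0.51 ± 0.060 with gefitinib and -0.37 ± 0.060 with AZ1366. The scaffold gene NOP58 changed by -0.89 ± 0.065 with both compounds, -0.49 ± 0.065 with gefitinib and -0.26 ± 0.065 with AZ1366. The change of NOP58 with AZ1366 did not pass under median-ratio scaling (-0.13, adjusted p = 0.115). RRP9, which marks the U3 snoRNP that is needed for the first cuts of the precursor, fell further, with log2 changes of -1.39 ± 0.079 with both compounds, -1.01 ± 0.079 with gefitinib and -0.60 ± 0.079 with AZ1366.

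The locus that joins NOP56, the second scaffold of these particles, with a microRNA behaved like the larger falls. NOP56 measured 20.3, 20.7, 19.6 and 19.7 FPKM with both compounds, 31.5, 32.2, 29.6 and 30.4 FPKM with gefitinib, 43.9, 35.5, 38.1 and 37.4 FPKM with AZ1366 and 66.2, 64.4, 63.9 and 60.7 FPKM with vehicle. No treated library reached the vehicle values. On the log2 scale its change was -1.62 ± 0.057 (adjusted p = 8.73e-14) with both compounds, -1.02 ± 0.057 with gefitinib and -0.71 ± 0.057 with AZ1366. The locus also overlaps snoRNA genes, and it is not counted among the 49.

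Box H/ACA snoRNPs pseudouridylate ribosomal RNA and also stabilise telomerase RNA. With the FPKM as deposited, the changes split between their subunits. DKC1, the gene of the pseudouridine synthase dyskerin (chrX:153991031-154005964, hg19), fell steeply. DKC1 had 26.3, 27.4, 25.6 and 27.2 FPKM with both compounds, 45.8, 45.9, 42.9 and 43.2 FPKM with gefitinib, 63.9, 50.4, 52.8 and 49.99 FPKM with AZ1366 and 90.8, 89.7, 90.1 and 88.2 FPKM with vehicle. The 4 groups did not overlap, and AZ1366 replicate 1 stood highest among the treated libraries. The mean of DKC1 was 29.7% of vehicle with both compounds, 49.5% with gefitinib and 60.5% with AZ1366. Against vehicle its log2 change was -1.72 ± 0.063 (adjusted p = 1.3e-13) with both compounds, -0.998 ± 0.063 with gefitinib and -0.72 ± 0.063 with AZ1366.

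GAR1, a partner of dyskerin, fell less and not with every treatment. GAR1 gave 17.3, 17.2, 14.3 and 15.9 FPKM with both compounds, 19.6, 20.7, 17.1 and 19.5 FPKM with gefitinib, 32.3, 18.9, 22.9 and 24.4 FPKM with AZ1366 and 26.3, 29.1, 30.0 and 25.5 FPKM with vehicle. AZ1366 replicate 1 was above all vehicle libraries, and AZ1366 replicates 2 to 4 were below all of them. On the log2 scale the change was -0.74 ± 0.11 (adjusted p = 1.07e-05) with both compounds, -0.51 ± 0.11 (adjusted p = 0.000855) with gefitinib and -0.19 ± 0.11 (adjusted p = 0.164) with AZ1366. Without AZ1366 replicate 1 the change with AZ1366 was -0.32 and passed (adjusted p = 0.00382).

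With the FPKM as deposited, the 2 small partners of dyskerin did not follow it with both compounds. NHP2 averaged 95.8 ± 5.36 FPKM with both compounds, 87.8 ± 8.64 FPKM with gefitinib, 94.2 ± 3.16 FPKM with AZ1366 and 93.6 ± 2.94 FPKM with vehicle (SD, n = 4 each). Each treated group of NHP2 overlapped with vehicle, and its changes were 0.033 ± 0.061 (adjusted p = 0.624) with both compounds, -0.10 ± 0.061 (adjusted p = 0.183) with gefitinib and 0.0095 ± 0.061 (adjusted p = 0.903) with AZ1366. Without gefitinib replicate 4 the change of NHP2 with gefitinib passed as a fall (-0.16, adjusted p = 0.0126). After correction for transcript length and GC content NHP2 passed as a fall in each treatment. The changes were then -0.22 (adjusted p = 4.16e-05) with both compounds, -0.21 (adjusted p = 0.000116) with gefitinib and -0.12 (adjusted p = 0.0138) with AZ1366. Under median-ratio scaling NHP2 passed as a rise with both compounds (0.21, adjusted p = 0.0146). NHP2 has 2 pseudogene names in the annotation.

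NOP10, whose promoter with 2 E-boxes is printed above, encodes the smallest protein of the particle. NOP10 stood at 109.7, 116, 123 and 120.4 FPKM with both compounds, 94.1, 93.9, 100.0 and 116 FPKM with gefitinib, 124, 136, 149.7 and 142 FPKM with AZ1366 and 103, 127, 115 and 119 FPKM with vehicle. All groups overlapped with vehicle. Against vehicle the log2 change was 0.019 ± 0.077 (adjusted p = 0.826) with both compounds, -0.20 ± 0.077 (adjusted p = 0.0331) with gefitinib and 0.25 ± 0.077 (adjusted p = 0.0116) with AZ1366, the single rise among the 49 genes. The fall with gefitinib did not pass without vehicle replicate 2, 3 or 4 or gefitinib replicate 1, 2 or 3 (adjusted p between 0.0539 and 0.111). The rise with AZ1366 held without each library in turn and was -0.032 (adjusted p = 0.536) after correction for transcript length and GC content.

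The small subunit processome folds the first part of the precursor, and further factors assemble the 40S subunit. All 15 genes of the processome and of 40S assembly fell in all 3 treatments. Their medians were -1.17 with both compounds, -0.81 with gefitinib and -0.57 with AZ1366. LYAR (chr4:4269429-4291896, hg19), a nucleolar zinc finger protein that takes part in early processing of the precursor, fell most. LYAR measured 6.97, 7.18, 6.58 and 6.41 FPKM with both compounds, 14.3, 14.5, 13.2 and 12.5 FPKM with gefitinib, 33.9, 21.97, 24.8 and 26.3 FPKM with AZ1366 and 38.9, 44.5, 41.7 and 39.0 FPKM with vehicle. The 4 groups of LYAR did not overlap. Its mean was 16.5% of vehicle with both compounds, 33.2% with gefitinib and 65.1% with AZ1366. As log2, the change was -2.43 ± 0.094 (adjusted p = 2.34e-13) with both compounds, -1.52 ± 0.094 (adjusted p = 2.9e-10) with gefitinib and -0.62 ± 0.094 (adjusted p = 6.19e-05) with AZ1366.

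NOP14, a processome scaffold, had the second largest fall with AZ1366. NOP14 had 6.35, 6.59, 5.19 and 5.49 FPKM with both compounds, 11.6, 11.6, 9.16 and 10.0 FPKM with gefitinib, 14.2, 8.79, 9.44 and 10.2 FPKM with AZ1366 and 23.7, 20.6, 20.2 and 19.99 FPKM with vehicle. The single compounds overlapped each other, and both lay below vehicle and above the combination. The log2 change was -0.94 ± 0.11 (adjusted p = 7.73e-06) with AZ1366, close to -0.94 ± 0.11 with gefitinib, and was -1.68 ± 0.11 with both compounds. NOP14 shares its interval with an open reading frame locus, C4orf10.

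UTP20 and HEATR1 are very long helical-repeat proteins of the processome. UTP20 gave 1.73, 1.87, 1.60 and 1.84 FPKM with both compounds, 3.58, 3.36, 2.92 and 2.90 FPKM with gefitinib, 5.43, 3.87, 3.77 and 4.01 FPKM with AZ1366 and 6.66, 6.98, 6.86 and 6.54 FPKM with vehicle. UTP20 was the least abundant of the 49 genes, and its treated groups did not overlap with vehicle. The log2 change, which understates the change at this level because of the added 1 FPKM, was -1.49 ± 0.082 (adjusted p = 2.33e-11) with both compounds, -0.89 ± 0.082 with gefitinib and -0.57 ± 0.082 with AZ1366. HEATR1 stood at 11.2, 10.6, 10.2 and 10.3 FPKM with both compounds, 13.9, 14.3, 14.5 and 13.8 FPKM with gefitinib, 17.6, 16.7, 15.6 and 16.6 FPKM with AZ1366 and 19.3, 20.7, 21.0 and 19.8 FPKM with vehicle. The groups of HEATR1 were ordered in the same way, with smaller steps. As log2, its change was -0.88 ± 0.050 (adjusted p = 3.6e-11) with both compounds, -0.49 ± 0.050 with gefitinib and -0.27 ± 0.050 with AZ1366. After correction for length and GC content the change of HEATR1 with AZ1366 was -0.11 and did not pass (adjusted p = 0.0523).

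NOB1 is the endonuclease that makes the final cut at the 3′ end of 18S ribosomal RNA, and PNO1 is its partner on the pre-40S particle. NOB1 measured 19.1, 20.3, 19.3 and 19.8 FPKM with both compounds, 22.5, 24.2, 20.9 and 22.9 FPKM with gefitinib, 23.0, 19.2, 22.3 and 20.9 FPKM with AZ1366 and 35.4, 33.0, 30.2 and 32.0 FPKM with vehicle. All 3 treated groups were below vehicle and close to each other. On the log2 scale the change was -0.70 ± 0.062 (adjusted p = 1.25e-08) with both compounds, -0.51 ± 0.062 with gefitinib and -0.59 ± 0.062 with AZ1366. PNO1 averaged 18.9 ± 0.137 FPKM with both compounds, 22.9 ± 0.861 FPKM with gefitinib, 27.4 ± 0.709 FPKM with AZ1366 and 32.8 ± 1.11 FPKM with vehicle (SD, n = 4 each). The fall of PNO1 with AZ1366 (log2 -0.25 ± 0.044) did not pass under median-ratio scaling (-0.13, adjusted p = 0.0520).

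The other 9 processome genes ranged widely. With both compounds the falls ran from WDR43 (-1.65 ± 0.067), PWP2 (-1.53 ± 0.080), DDX10 (-1.51 ± 0.077) and RRP12 (-1.50 ± 0.077) to BYSL (-1.17 ± 0.069) and WDR3 (-1.17 ± 0.045). They were smaller for UTP15 (-0.83 ± 0.051), WDR75 (-0.70 ± 0.052) and UTP3 (-0.48 ± 0.065). WDR43 and UTP15 belong to the subcomplex that binds the nascent precursor first, PWP2 and WDR3 to the next one, DDX10 is a helicase and RRP12 an export factor. UTP3 was the one gene of the 9 that fell further with AZ1366 (-0.31 ± 0.065) than with gefitinib (-0.22 ± 0.065), and that difference was not tested. The WDR3 locus spans part of SPAG17, and HEATR1 overlaps LGALS8. WDR75 with AZ1366 (-0.20 ± 0.052) did not pass under quantile normalization (-0.096, adjusted p = 0.201) or median-ratio scaling (-0.078, adjusted p = 0.329).

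**Figure D3:**
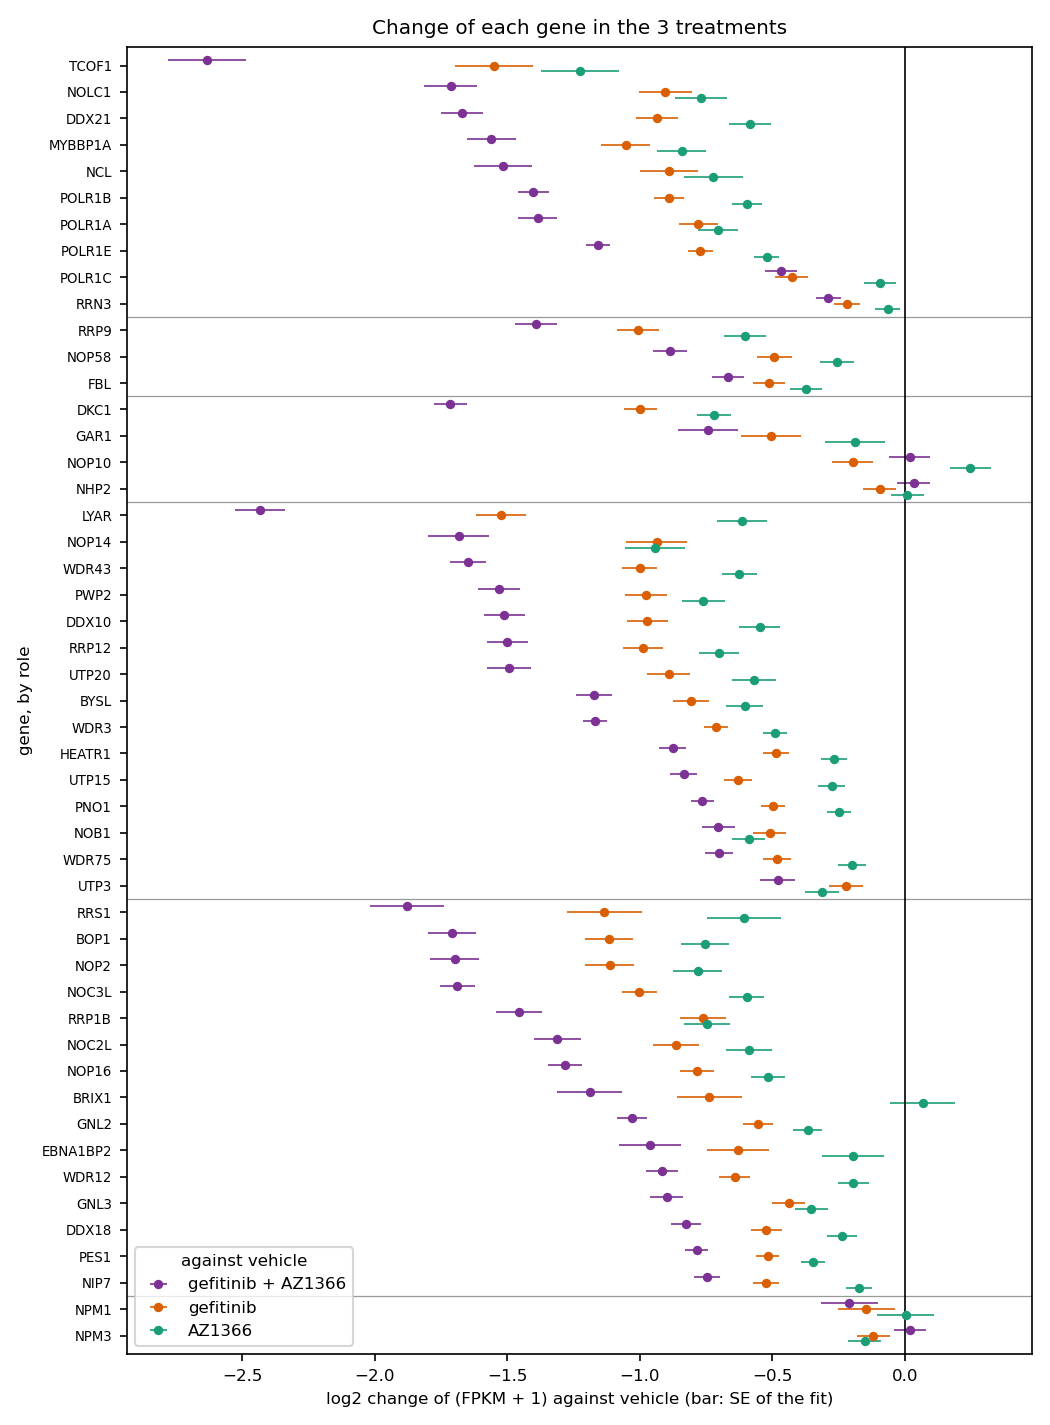
Log2 change of (FPKM + 1) against vehicle (points) with the standard error of the fit (bars) for each gene in the same order of roles, for both compounds, gefitinib and AZ1366. Both compounds lie farthest to the left in most rows, from TCOF1 at -2.63, and BRIX1 is the 60S gene whose AZ1366 value lies right of 0, at 0.067.

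The 60S subunit is assembled by a second set of nucleolar proteins. All 15 of these genes fell with both compounds and with gefitinib, and 13 fell with AZ1366, with median log2 changes of -1.19 with both compounds, -0.74 with gefitinib and -0.37 with AZ1366. RRS1, which helps to bring the 5S particle into the pre-60S subunit, fell most with both compounds and with gefitinib. RRS1 had 6.92, 7.43, 5.45 and 5.93 FPKM with both compounds, 12.3, 12.0, 11.0 and 10.4 FPKM with gefitinib, 22.2, 11.4, 17.2 and 18.2 FPKM with AZ1366 and 26.5, 30.0, 26.2 and 22.5 FPKM with vehicle. The groups of RRS1 did not overlap except that AZ1366 replicate 2 lay among the gefitinib libraries. Its log2 change was -1.88 ± 0.14 (adjusted p = 1.22e-09) with both compounds, -1.13 ± 0.14 (adjusted p = 1.93e-06) with gefitinib and -0.61 ± 0.14 (adjusted p = 0.00155) with AZ1366.

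BOP1, PES1 and WDR12 form the PeBoW complex, which is needed to process the 32S precursor into 28S ribosomal RNA. Their 3 genes fell to different extents. BOP1 gave 5.57, 5.59, 4.44 and 5.11 FPKM with both compounds, 8.21, 9.01, 7.43 and 8.55 FPKM with gefitinib, 12.3, 9.60, 11.9 and 10.2 FPKM with AZ1366 and 22.5, 17.4, 18.5 and 18.6 FPKM with vehicle. Each treated group was below vehicle, and the combination was below both single compounds. The log2 change of BOP1 was -1.71 ± 0.090 (adjusted p = 1.35e-11) with both compounds, -1.12 ± 0.090 with gefitinib and -0.75 ± 0.090 with AZ1366. PES1 stood at 26.0, 26.4, 25.3 and 25.6 FPKM with both compounds, 31.5, 32.2, 29.2 and 32.4 FPKM with gefitinib, 37.2, 35.0, 34.7 and 34.6 FPKM with AZ1366 and 45.6, 44.2, 46.3 and 45.01 FPKM with vehicle. The 4 groups of PES1 did not overlap. On the log2 scale its change was -0.79 ± 0.045 (adjusted p = 3.9e-11) with both compounds, -0.52 ± 0.045 with gefitinib and -0.35 ± 0.045 with AZ1366. WDR12 fell, with log2 changes of -0.92 ± 0.059 with both compounds and -0.64 ± 0.059 with gefitinib. With AZ1366 WDR12 overlapped with vehicle (-0.19 ± 0.059, adjusted p = 0.00999) and did not pass under quantile normalization (-0.050, adjusted p = 0.637), median-ratio scaling (-0.077, adjusted p = 0.435) or the length and GC correction (-0.064, adjusted p = 0.557).

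NOP2 encodes a methyltransferase of 28S ribosomal RNA, and its promoter is printed above. NOP2 measured 7.67, 7.84, 6.60 and 7.07 FPKM with both compounds, 12.0, 12.4, 10.6 and 10.9 FPKM with gefitinib, 18.5, 12.6, 14.2 and 13.8 FPKM with AZ1366 and 29, 25.0, 25.0 and 24.8 FPKM with vehicle. Vehicle was above all treated libraries, and the combination was below all others. Against vehicle the log2 change was -1.70 ± 0.093 (adjusted p = 2.08e-11) with both compounds, -1.11 ± 0.093 with gefitinib and -0.78 ± 0.093 with AZ1366. GNL3 encodes nucleostemin, a GTPase of proliferating cells. GNL3 had 10.0, 10.1, 10.4 and 11.1 FPKM with both compounds, 16.1, 15, 14.3 and 13.5 FPKM with gefitinib, 16.7, 15.8, 14.7 and 15.4 FPKM with AZ1366 and 19.5, 21.3, 21.5 and 18.8 FPKM with vehicle. The treated libraries of GNL3 lay below the vehicle libraries. The log2 change of GNL3 was -0.90 ± 0.062 (adjusted p = 4.5e-10) with both compounds, -0.44 ± 0.062 with gefitinib and -0.35 ± 0.062 with AZ1366; its locus overlaps snoRNA genes and the genes SPCS1 and GLT8D1.

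BRIX1 and EBNA1BP2, both assembly factors of the early pre-60S particle, fell with gefitinib and, with the FPKM as deposited, did not pass with AZ1366. BRIX1 averaged 49.3 ± 1.91 FPKM with both compounds, 67.9 ± 5.77 FPKM with gefitinib, 119.9 ± 15.4 FPKM with AZ1366 and 116 ± 26.6 FPKM with vehicle (SD, n = 4 each). The vehicle libraries of BRIX1 spread widely, from 91.2 to 147 FPKM. Against vehicle its log2 change was -1.19 ± 0.12 (adjusted p = 8.87e-08) with both compounds, -0.74 ± 0.12 (adjusted p = 5.18e-05) with gefitinib and 0.067 ± 0.12 (adjusted p = 0.65) with AZ1366. EBNA1BP2 averaged 70.3 ± 4.08 FPKM with both compounds, 89.0 ± 8.89 FPKM with gefitinib, 122 ± 20.8 FPKM with AZ1366 and 139 ± 21.5 FPKM with vehicle (SD, n = 4 each). Its change was -0.96 ± 0.12 with both compounds, -0.63 ± 0.12 with gefitinib and -0.19 ± 0.12 (adjusted p = 0.161) with AZ1366. With AZ1366 it passed as a fall after correction for transcript length and GC content (-0.30, adjusted p = 0.0177) and without vehicle replicate 1 and AZ1366 replicate 1 together (-0.32, adjusted p = 0.0351). Gefitinib and AZ1366 were not tested against each other.

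The other 7 of the 60S genes fell in all 3 treatments. NOC3L (-1.69 ± 0.066), RRP1B (-1.46 ± 0.087), NOC2L (-1.31 ± 0.088) and NOP16 (-1.28 ± 0.064) led with both compounds, followed by the GTPase gene GNL2 (-1.03 ± 0.055), the helicase gene DDX18 (-0.83 ± 0.057) and NIP7 (-0.75 ± 0.049), which takes part in pre-ribosomal RNA processing. RRP1B fell as far with AZ1366 (-0.75 ± 0.087) as with gefitinib (-0.76 ± 0.087) within their standard errors. NIP7 with AZ1366 (-0.17 ± 0.049) did not pass under quantile normalization (-0.14, adjusted p = 0.0594) or median-ratio scaling (-0.052, adjusted p = 0.576), and DDX18 with AZ1366 (-0.24 ± 0.057) did not under median-ratio scaling (-0.11, adjusted p = 0.0992).

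NPM1 and NPM3 encode nucleolar histone chaperones of the nucleoplasmin family, and nucleophosmin, the product of NPM1 (chr5:170814708-170837888, hg19), is among the most abundant nucleolar proteins. NPM1 gave 1176, 1312, 1255 and 1308 FPKM with both compounds, 1214, 1466, 1346 and 1267 FPKM with gefitinib, 1482, 1374, 1505 and 1495 FPKM with AZ1366 and 1206, 1628, 1858 and 1244 FPKM with vehicle. The groups overlapped, and the vehicle libraries alone spanned from 1206 to 1858 FPKM. As log2, the change was -0.21 ± 0.11 (adjusted p = 0.0816) with both compounds, -0.14 ± 0.11 (adjusted p = 0.247) with gefitinib and 0.0033 ± 0.11 (adjusted p = 0.98) with AZ1366. With both compounds it passed as a fall without vehicle replicate 1 or vehicle replicate 4 (adjusted p between 0.0138 and 0.0246). Under quantile normalization its change passed with both compounds (-0.58, adjusted p = 0.0003) and with gefitinib (-0.30, adjusted p = 0.0379), and was -0.23 with AZ1366. NPM1 has 45 pseudogene names in the annotation, so its level is uncertain.

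NPM3 had far lower FPKM than NPM1 and, with the FPKM as deposited, passed as a fall with AZ1366 and not in the other treatments. NPM3 stood at 18.2, 19.4, 17.8 and 15.7 FPKM with both compounds, 15.8, 16.6, 15.5 and 16.3 FPKM with gefitinib, 15.3, 16.1, 16.6 and 14.7 FPKM with AZ1366 and 17.6, 16.2, 17.8 and 18.4 FPKM with vehicle. All treated groups overlapped with vehicle. The log2 change was 0.019 ± 0.062 (adjusted p = 0.781) with both compounds, -0.12 ± 0.062 (adjusted p = 0.1) with gefitinib and -0.15 ± 0.062 (adjusted p = 0.0423) with AZ1366. The fall with AZ1366 did not pass without vehicle replicate 1, 3 or 4, AZ1366 replicate 1 or 4, gefitinib replicate 1 or combination replicate 1 or 3 (adjusted p between 0.0503 and 0.131). It was -0.034 (adjusted p = 0.677) under median-ratio scaling and -0.014 (adjusted p = 0.869) under quantile normalization, where NPM3 passed as a rise with both compounds (0.19 and 0.23, adjusted p = 0.0152 and 0.00459). After correction for transcript length and GC content NPM3 passed as a fall with both compounds (-0.25, adjusted p = 0.00184), gefitinib (-0.24, adjusted p = 0.00296) and AZ1366 (-0.31, adjusted p = 0.00069).

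Added to gefitinib, AZ1366 lowered most of the genes further. With both compounds 42 of 49 were below gefitinib alone and 1 (NOP10) above it, against 37.2% lower and 15.3% higher of all tested loci, 52.5% in either direction. The median log2 change was -0.45 (all loci -0.10), and TCOF1 at -1.08 ± 0.15 (adjusted p = 2.27e-05) was the one gene past -1, where 0.335% of all loci were. LYAR (-0.91 ± 0.094, adjusted p = 1.34e-06) and NOLC1 (-0.81 ± 0.10, adjusted p = 8.27e-06) came next. Group values did not overlap, and were lower with both compounds, for 41 genes (34.4% of all loci). The 6 genes that did not pass were POLR1C, RRN3, NPM1, NPM3, GAR1 and NHP2.

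Some of these calls rested on few libraries or on the scaling. NOP10 was higher with both compounds than with gefitinib (0.22 ± 0.077, adjusted p = 0.0266), and this did not pass without gefitinib replicate 1, 2 or 3 or combination replicate 3 or 4 (adjusted p between 0.0502 and 0.0846) or after correction for transcript length and GC content (0.032, adjusted p = 0.557). FBL (-0.15 ± 0.060, adjusted p = 0.0403) did not pass without gefitinib replicate 1, 2 or 4 or combination replicate 1, 3 or 4 (adjusted p between 0.0688 and 0.123), and NOB1 (-0.19 ± 0.062, adjusted p = 0.0157) did not without gefitinib replicate 2 (adjusted p = 0.0592). Under median-ratio scaling FBL was -0.040 (adjusted p = 0.544) and NOB1 -0.082 (adjusted p = 0.181), and under quantile normalization FBL was -0.077 (adjusted p = 0.242) and NOB1 -0.077 (adjusted p = 0.219). WDR12, WDR75, UTP15, NIP7 and EBNA1BP2 also did not pass in at least 1 alternative. GAR1 (-0.24 ± 0.11, adjusted p = 0.0901) passed without AZ1366 replicate 1 or 2 (adjusted p between 0.0195 and 0.0438), when only the libraries compared were fitted (adjusted p = 0.0146) and after the length and GC correction (-0.35, adjusted p = 0.0154).

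Added to AZ1366, gefitinib lowered 45 of 49 genes and raised 1 (NPM3), against 35.7% lower and 26.9% higher of all tested loci, 62.6% in either direction. The median log2 change was -0.71 (all loci -0.05), and 7 genes passed -1, where 1.65% of loci did. LYAR (-1.82 ± 0.094, adjusted p = 3.33e-11), TCOF1 (-1.41 ± 0.15, adjusted p = 2.41e-07) and RRS1 (-1.27 ± 0.14, adjusted p = 4.65e-07) fell most. Values of 45 genes were lower and did not overlap (30.8% of all loci). NOB1, at -0.12 ± 0.062 (adjusted p = 0.118), did not pass; it did without AZ1366 replicate 2 (adjusted p = 0.0303) and after correction for transcript length and GC content (-0.17, adjusted p = 0.00293). NPM3, at 0.17 ± 0.062 (adjusted p = 0.0221), did not pass without AZ1366 replicate 4 or combination replicate 1 or 2 (adjusted p between 0.0556 and 0.0848). NPM1, at -0.21 ± 0.11 (adjusted p = 0.093), passed without vehicle replicate 3 (adjusted p = 0.0403), when only the libraries compared were fitted (adjusted p = 0.00733), under quantile normalization (-0.35, adjusted p = 0.0179) and after the length and GC correction (-0.23, adjusted p = 0.0277). These 5 comparisons share groups with each other, so their values are set side by side and are not independent.

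Falls with both compounds were close in size to the sum of the single changes. The departure from additivity is the change with both compounds minus the sum of the 2 single changes. It ran from -0.52 (BRIX1) to 0.39 (NOB1) with a median of 0.017, above 0 for 27 genes and below 0 for 22. Of the 49 genes 0 passed below 0 and 1, NOB1, passed above 0. Of all tested loci 1.49% passed below 0 and 0.326% above 0, 1.82% in either direction. At an unadjusted p under 0.05 limma gave 2 genes below and 5 above. The share of all loci at that unadjusted level was not taken, so these counts are not read as an excess. A departure that did not pass is not shown to be 0.

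The log2 change of NOB1 with both compounds, -0.70 ± 0.062, was smaller than the sum of -0.51 ± 0.062 with gefitinib and -0.59 ± 0.062 with AZ1366 (departure 0.39 ± 0.088, adjusted p = 0.0275). Leaving out vehicle replicate 1 or 4, gefitinib replicate 1 or 3, AZ1366 replicate 4 or any of the 4 combination libraries ended that call (adjusted p between 0.0512 and 0.0702), with departures between 0.35 and 0.43 over the 16 libraries left out in turn. BRIX1, named here after its values were seen, departed in the other direction by -0.52 ± 0.17 (adjusted p = 0.166) and did not pass. LYAR had a departure of -0.29 ± 0.13 (adjusted p = 0.325). TCOF1 (0.14 ± 0.21, adjusted p = 0.778), POLR1A (0.10 ± 0.11, adjusted p = 0.692), POLR1B (0.085 ± 0.081, adjusted p = 0.653), NCL (0.10 ± 0.16, adjusted p = 0.807) and DKC1 (0.0034 ± 0.089, adjusted p = 0.989) stood near 0. The departure moved with base composition: its Spearman correlation with GC content was 0.69 across the 49 genes and 0.48 across the 11536 tested loci with a known transcript, which are a description across genes that share the same 16 libraries. The part of GC content in the departures was not tested beyond the correction, after which that of NOB1 was 0.38 (adjusted p = 0.00205).

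**Figure D4:**
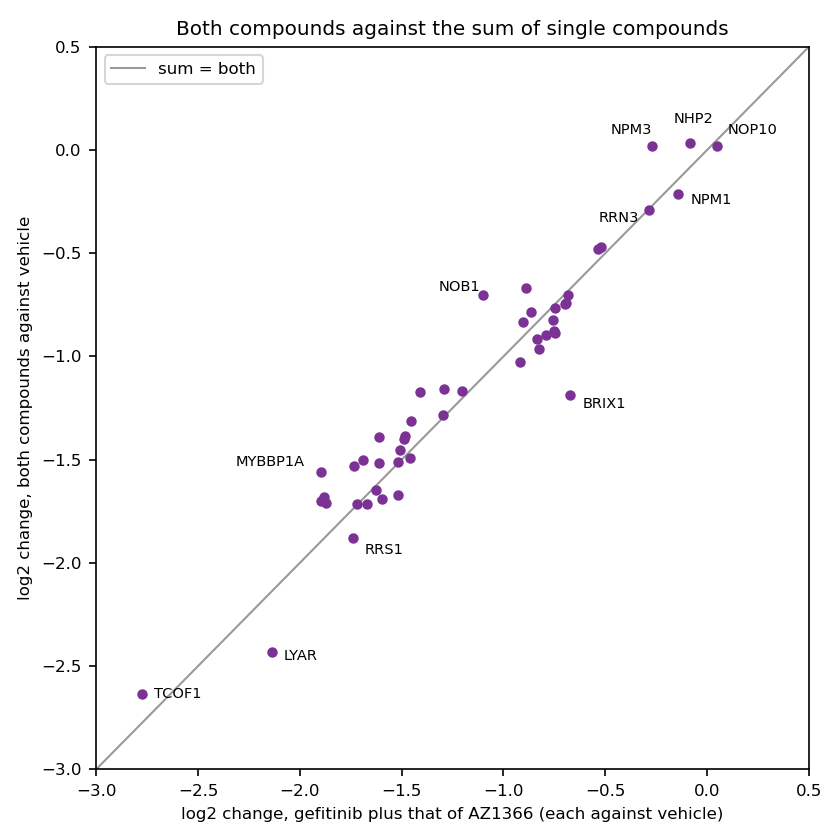
Each point is a gene, with the sum of the log2 changes of the single compounds against vehicle on the x axis and the log2 change with both compounds against vehicle on the y axis. Points lie along the grey line of equal values from TCOF1 to NOP10, with NOB1 above it and BRIX1 below it.

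Log2 changes were lower for longer transcripts, in the 49 genes and over all loci. The Spearman correlation of the log2 change with transcript length was -0.44 across the 49 genes with both compounds, -0.37 with gefitinib and -0.44 with AZ1366, and, across 11536 tested loci, -0.32 with both compounds, -0.19 with gefitinib and -0.36 with AZ1366 (a description, since genes share the same libraries). The 3 shortest transcripts were those of NOP10 (554 nucleotides), NHP2 (865) and NPM3 (877), none of which passed the test with both compounds. With both compounds the median change was -1.50 for the 24 genes longer than 2577 nucleotides and -0.89 for the other 25.

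After each library was corrected for a smooth trend on length and GC content, 48 of 49 genes fell with both compounds, 49 with gefitinib and 43 with AZ1366, and 0 rose in each. Of all loci corrected in this way, 41.5% were lower and 39.9% higher with both compounds, 38.4% and 33.4% with gefitinib, and 30.7% and 29.04% with AZ1366. NOP10 then had a change of -0.36 (adjusted p = 5.50e-07), NHP2 of -0.22 (4.16e-05), NPM3 of -0.25 (0.00184) and NPM1 of -0.34 (0.00176) with both compounds. With the FPKM as deposited none of these 4 passed with both compounds. TCOF1 changed by -2.22 and LYAR by -2.61 with both compounds under the same correction.

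**Figure D5:**
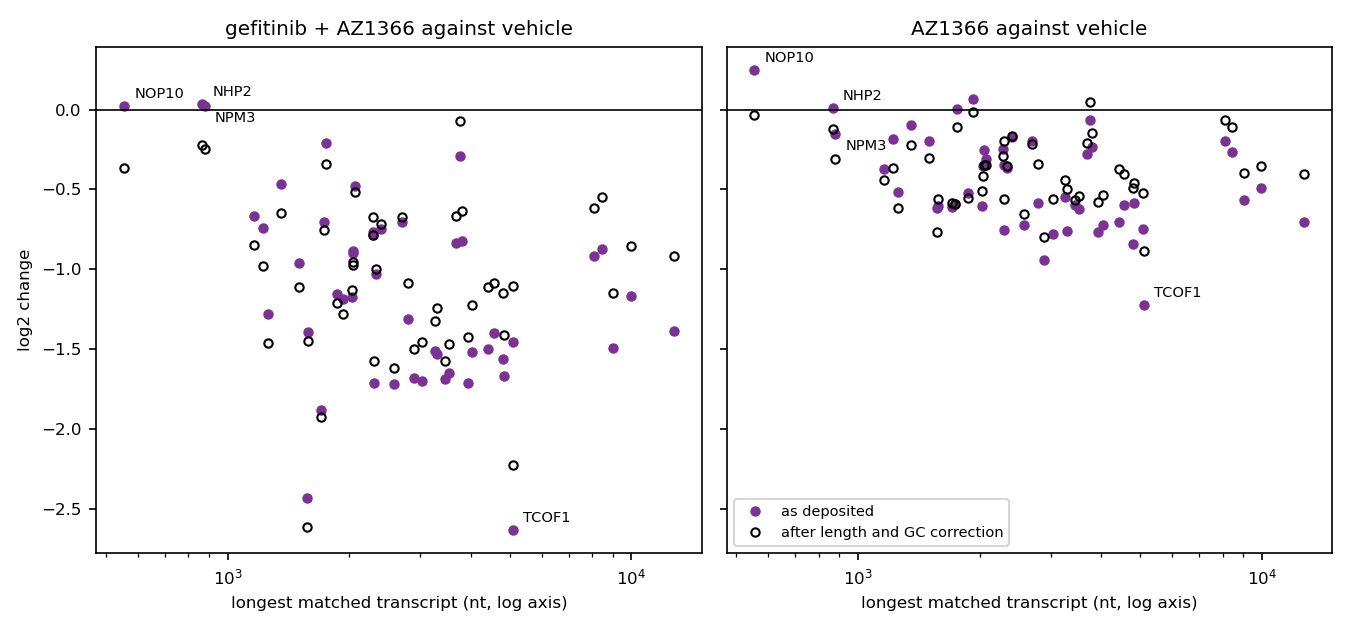
Log2 change of each of the 49 genes against the length of its longest matched transcript, with both compounds (left) and AZ1366 (right) against vehicle. Filled points use the deposited FPKM and open points the values after correction for length and GC content; the correction moves NOP10, NHP2 and NPM3 down with both compounds and long transcripts up.

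The scaling of the libraries bore on the count for AZ1366 more than on those for gefitinib. Median-ratio scaling moved the median of all tested loci from -0.10 to 0.0038 with AZ1366 and from -0.15 to 0.0027 with both compounds. With AZ1366 34 of the 49 genes then fell and 1 rose, with a median of -0.40, and with gefitinib 45 fell and 0 rose. Of all tested loci 33.9% were then lower and 33.1% higher with gefitinib. With AZ1366 all tested loci divided into 3534 lower and 3540 higher, against 4633 and 2168 as deposited. With both compounds 45 genes fell and 2 (NHP2 and NPM3) rose, with a median of -1.01, and all loci divided into 4691 lower and 4708 higher, against 5753 and 3488 as deposited. For both compounds against gefitinib the genes were 35 lower and 3 higher, and all loci 3250 lower and 3099 higher, against 4338 and 1780 as deposited.

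Other genes of the pathway, listed from general knowledge and not among the 50, moved mostly downwards. The counts stand against all tested loci, of which 49.4% were lower and 29.9% higher with both compounds, 36.9% and 27.7% with gefitinib, and 39.8% and 18.6% with AZ1366. Of 29 other processome and 40S genes tested, 27 fell and 1 rose with both compounds, 28 fell and 1 rose with gefitinib, and 23 fell and 0 rose with AZ1366, with median log2 changes of -0.88 with both compounds, -0.53 with gefitinib and -0.36 with AZ1366. The largest changes with both compounds were MPHOSPH10 (-1.57) and TSR1 (-1.45), with gefitinib IMP4 (-0.95) and MPHOSPH10 (-0.86), and with AZ1366 MPHOSPH10 (-0.94) and DHX37 (-0.74). Of 32 other 60S genes, 28 fell and 1 rose with both compounds, 29 fell and 1 rose with gefitinib, and 24 fell and 3 rose with AZ1366. MRTO4 (-1.53) and RRP1 (-1.38) changed most with both compounds, and the same 2 genes did with gefitinib (-1.01 and -0.97) while RRP1 (-0.81) and DDX31 (-0.63) did with AZ1366.

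The rest of the polymerase I machinery had medians near 0: log2 changes of -0.11 with both compounds, -0.20 with gefitinib and -0.071 with AZ1366. Of 15 other polymerase I genes, subunits shared with other polymerases included, 7 fell and 2 rose with both compounds, 8 fell and 0 rose with gefitinib, and 6 fell and 2 rose with AZ1366. The share of these 15 that fell with both compounds or AZ1366 was close to that of all tested loci (49.4% lower with both compounds and 39.8% with AZ1366), and with gefitinib 36.9% of all loci fell. CD3EAP, a polymerase I subunit, fell most in all 3 treatments, with log2 changes of -1.54 with both compounds, -0.93 with gefitinib and -0.83 with AZ1366. TAF1A, of the promoter selectivity factor, followed with both compounds (-0.89) and gefitinib (-0.56), and POLR2K, a short shared subunit, rose with AZ1366 (0.46). Of 14 RNA polymerase III genes, 11 fell and 1 rose with both compounds, 10 fell and 1 rose with gefitinib and 9 fell and 1 rose with AZ1366, led in each by POLR3E (-1.54 with both compounds, -1.03 with gefitinib and -0.76 with AZ1366). POLR3G was next with both compounds (-1.22) and with gefitinib (-0.97).

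Processing and assembly partners gave mixed counts, read against the 49.4% of all tested loci that fell with both compounds, 36.9% with gefitinib and 39.8% with AZ1366. The exosome trims precursor ends. Of 14 symbols listed for it, 12 fell and 1 rose with both compounds and with gefitinib. With AZ1366, 5 fell and 2 rose. EXOSC2 (-0.94) and MPP6 (-0.88) changed most with both compounds, and the same 2 with gefitinib (-0.63 and -0.58). With AZ1366 these were C1D (0.46) and MPP6 (-0.41). MPP6 is an alias of an exosome cofactor but the official symbol of a membrane scaffold gene. The locus was matched by symbol, so it may not be an exosome gene. Of 9 snoRNP assembly factors, 6 fell and 1 rose with both compounds, 5 fell with gefitinib and 7 with AZ1366, led by RUVBL1 and NUFIP1 with both compounds (-1.01 and -0.98), by the same 2 with gefitinib (-0.61 and -0.61) and by NUFIP1 and ZNHIT6 with AZ1366 (-0.39 and -0.38). Of 9 genes that silence ribosomal DNA, 9 fell with both compounds, 6 with gefitinib and 9 with AZ1366. DNMT1 fell most, with log2 changes of -1.55 with both compounds, -0.79 with gefitinib and -0.76 with AZ1366. SUV39H1 was second with both compounds (-1.16) and gefitinib (-0.64), and RRP8 with AZ1366 (-0.42).

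Transcripts that host snoRNAs in their introns moved both ways. Of 7 tested, 3 fell and 4 rose with both compounds and with gefitinib, and 3 fell and 2 rose with AZ1366, where 29.9% of all tested loci rose with both compounds, 27.7% with gefitinib and 18.6% with AZ1366. SNHG5 (1.04) and SNHG8 (0.94) rose with both compounds, SNHG5 rose (0.59) and SNHG15 fell (-0.56) with gefitinib, and SNHG15 fell (-0.41) and SNHG5 rose (0.37) with AZ1366.

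MYC, the transcription factor best known for driving these genes, fell in all 3 treatments. It averaged 1.402 ± 0.192 FPKM with both compounds, 2.79 ± 0.0824 FPKM with gefitinib, 3.02 ± 0.343 FPKM with AZ1366 and 5.73 ± 0.762 FPKM with vehicle (SD, n = 4 each). As log2, its change was -1.48 ± 0.081 (adjusted p = 2.19e-11) with both compounds, -0.82 ± 0.081 (adjusted p = 1.34e-07) with gefitinib and -0.74 ± 0.081 (adjusted p = 2.78e-06) with AZ1366. Of the 9 tested genes of its network, 4 fell and 4 rose with both compounds, 3 fell and 3 rose with gefitinib, and 2 fell and 1 rose with AZ1366. Of all tested loci 49.4% fell and 29.9% rose with both compounds, 36.9% and 27.7% with gefitinib, and 39.8% and 18.6% with AZ1366. MXI1, an antagonist of MYC, rose with both compounds (0.97), with gefitinib (0.69) and with AZ1366 (0.44).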

How the data were processed

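Polyadenylated RNA of HCC4006 cells was extracted with a miRNeasy kit and made into TruSeq RNA v2 libraries, per the labels' protocols. The authors deposited 1 table of FPKM (fragments per kilobase of transcript and mapped depth) for 24293 loci in 16 libraries. TopHat 1.4.1, Cufflinks 1.3.0, Cuffdiff and the build hg19 are named in the submitters' processing notes, without their roles; the gene annotation and the strand setting were not given in the sources used here. Each library's column was matched to its sample by title, and 0 columns of other samples were found. FPKM divide by length and by depth, so a value is a share of its library. The low values showed no whole-read steps (the fullest bin of 0.05 log2 held 3.23% of the ratios), so depth is unknown and no counting interval is given; the number of libraries limits the precision.

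Values were tested as log2(FPKM + 1), so a fold change understates that of low genes, for the 11647 loci with a mean of at least 1 FPKM. limma 3.58.1 in R 4.3.3 fitted the 4 groups together with 12 residual degrees of freedom and a mean-variance trend, two-sided, with Benjamini-Hochberg adjustment over all tested loci and a threshold of 0.05. The 6 comparisons were the 3 treatments against vehicle, the combination against each compound and the departure from additivity. The 3 comparisons with vehicle share the 4 vehicle libraries. Every adjusted p in the text is limma's. The procedure was tested on simulated data.

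The members, the gene lists and the rule for named genes were chosen with earlier results of these data known. Every library is given for 17 genes that stand for the roles and for the 3 largest falls and 3 largest rises among those that passed in each comparison, 24 in all; other pathway genes are named where they have the 2 largest changes that passed, except that 1 such gene and 1 marker are not reported here. Transcript length and GC content come from the longest matched reference transcript, and promoters from RefSeq on GRCh38.p14, while locus coordinates are those of the table. Protein sequences were not used here. Alternatives were other pseudocounts, filters, scalings, a length and GC correction, no trend, only the libraries compared, a replicate block, a minimum fold and leaving out libraries.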

Additional observations from a re-analysis of the deposited data

Results flagged for a closer look

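Of 96 groups of 4 libraries (24 genes in 4 groups), 6 held 1 library far from the other 3 by Dixon's criterion. Chance meets this criterion in about 1 in 20 independent groups, and 6 of 96 is close to that rate. The 24 genes share the same libraries, so their groups are not independent and the comparison does not show that the 6 arose by chance. AZ1366 replicate 1 was high for 3 genes: POLR1B had 14.3 FPKM there and 11.9 to 12.2 in the other AZ1366 libraries, UTP20 5.43 against 3.77 to 4.01, and PES1 37.2 against 34.6 to 35.0. Vehicle replicate 1 was high for NOP2, with 29 FPKM against 24.8 to 25.0 in the other vehicle libraries, and for NOP14, with 23.7 against 19.99 to 20.6. FBL had 33.4 FPKM in combination replicate 2 and 32.2 to 32.4 in the other combination libraries.

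The effect of AZ1366 on NOB1 differed between cells with and without gefitinib, by 0.394 on the log2 scale (departure from additivity, SE 0.0884, limma adjusted p = 0.0275), with a smaller fall when gefitinib was present. In 9 of the 16 fits with 1 library left out this call ended (adjusted p between 0.0512 and 0.0702). NOB1 was 1 of 49 genes to pass, where 1.82% of all tested loci passed in either direction.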

How the results depend on the processing

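Of the genes called lower, 44 of 45 with both compounds, 45 of 46 with gefitinib and 33 of 41 with AZ1366 were called in each of the 26 alternatives other than the minimum fold in which they were tested, and 35 of 42 for the combination against gefitinib and 43 of 45 against AZ1366; UTP20 was not tested at a minimum mean of 5 FPKM. Requiring an absolute log2 change of 1 left 28 genes lower with both compounds, 9 with gefitinib and 1 with AZ1366, 1 for the combination against gefitinib and 7 against AZ1366, and 0 higher in each comparison and in the departure. The count of genes higher was 0 with AZ1366 and 0 for the combination against AZ1366 after the length and GC correction, and 0 for that last comparison when only the libraries compared were fitted. With both compounds it was 1 under quantile normalization and 2 under median-ratio scaling, and against gefitinib 2 and 3. In the departure 2 were higher without vehicle replicate 1 and AZ1366 replicate 1 together, where 0.987% of all tested loci were higher. Leaving out 1 library at a time gave 0 to 2 genes higher for the combination against gefitinib, 0 to 1 against AZ1366, and 0 to 2 higher and 0 to 1 lower in the departure.

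Under quantile normalization the loci with AZ1366 divided into 3615 lower and 3341 higher, both compounds 4821 and 4555, and the combination against gefitinib 3114 and 3064. With AZ1366, POLR1C changed sign to 0.049 under quantile normalization and 0.017 under median-ratio scaling, and RRN3 to 0.057 under median-ratio scaling and 0.049 after the length and GC correction. NPM1 was then -0.23 under quantile normalization, -0.11 after the correction and -0.095 without the 2 libraries named above. After the correction NHP2 was -0.12, NOP10 -0.032 and BRIX1 -0.018 with AZ1366, and BRIX1 was -0.083 without the 2 libraries. With both compounds the correction gave NPM3 -0.25, NHP2 -0.22 and NOP10 -0.36, and NOP10 was -0.036 without the 2 libraries. For the combination against gefitinib RRN3 was 0.044 and NPM1 0.052 under median-ratio scaling, and RRN3 0.092 after the correction. Leaving out 1 library at a time moved NPM1 between -0.089 and 0.12, NHP2 between -0.010 and 0.028 and BRIX1 between -0.037 and 0.19 with AZ1366, and NOP10 between -0.036 and 0.063 and NPM3 between -0.022 and 0.074 with both compounds. The causes were not tested.

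The labels do not say that replicate numbers pair libraries. Deviations of same-numbered libraries correlated between -0.447 and 0.539, with a median of 0.215 and above 0.1 in 16 of 24 pairs, so the block was kept as an alternative, and the best match had the same number in 15 of 48 cases. With the number as a replicate block 46 genes fell with both compounds (NPM1 added, adjusted p = 0.048), 46 with gefitinib and 41 with AZ1366. For the combination 42 fell against gefitinib and 45 against AZ1366, and the departure kept 1 call. Under the block 50.2% of all tested loci were lower with both compounds, 38.7% with gefitinib and 41.9% with AZ1366. The shares lower were 40.1% for the combination against gefitinib and 37.4% against AZ1366. In the departure 1.60% of loci were lower and 0.352% higher.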
